A study of Mus musculus with 6 samples.

Results

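The genes described here are 10 markers of the mural and stromal cells of the kidney, that is pericytes, interstitial fibroblasts and vascular smooth muscle. They were chosen by gene symbol, by a rule that used no measured value but with earlier results of these data known. All 10 were found among the 24422 symbols counted. They are *Pdgfra* and *Pdgfrb* (receptors for platelet-derived growth factor), *Cspg4* and *Rgs5* (markers of pericytes), *Nt5e* (a cell surface nucleotidase of renal fibroblasts), *Gli1* (a transcription factor and target of Hedgehog signaling), and *Acta2*, *Tagln*, *Myh11* and *Des* (proteins of the contractile apparatus and its filaments). RNA was sequenced from whole kidneys of 3 FeD pups and 3 control pups, all wild type C57BL/6 mice at postnatal day 15. The dams of the FeD pups ate a diet with 2 to 6 ppm iron and the dams of the control pups a diet with 220 ppm iron, from 1 month before mating (as the labels state) through pregnancy and nursing. The dams were 8 weeks old when the diets began. The pups' sex and litters were not given in the sources used here. The comparison asks how a maternal diet low in iron altered the expression of these genes.

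Pericytes are contractile cells that wrap capillaries, and smooth muscle cells form the wall of arteries and arterioles. Endothelial cells secrete platelet-derived growth factor, which recruits pericytes through *Pdgfrb*. In the kidney, fibroblasts and pericytes of the interstitium descend from a common stroma and some of them make erythropoietin in anemia. Mature smooth muscle is recognised by its contractile proteins, of which the heavy chain *Myh11* is among the most restricted and *Acta2* and *Tagln* are more widely shared with pericytes and activated fibroblasts.

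Control libraries held 16189041 to 20374327 counts and FeD libraries 13732173 to 20853293. Markers of proximal tubule, podocytes and endothelium were abundant in every library. Some libraries stood apart. FeD kidney 2 held adrenal transcripts, with 3443 normalized counts of *Cyp21a1* against 4.79 to 14.7 in the other 5 kidneys, and control kidney 1 held some, with 989 of *Hsd3b1*. FeD kidney 1 held skeletal muscle transcripts, with 172 normalized counts of *Myh1*, which was listed at 0 in the other kidneys. *Xist* exceeded the Y-linked *Ddx3y* in 2 control kidneys and 1 FeD kidney, and the reverse held in 1 control kidney and 2 FeD kidneys. Results were therefore recomputed without these libraries and with sex as a covariate.

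The 10 genes did not move together in FeD kidneys. *Rgs5* was upregulated 3.32-fold, and *Pdgfra*, *Pdgfrb*, *Gli1* and *Tagln* rose by smaller amounts. *Des* and *Myh11* were downregulated 2.73-fold and 2.50-fold, and *Cspg4* fell slightly. *Acta2* and *Nt5e* did not pass the test. At an adjusted P under 0.05 (edgeR quasi-likelihood test, Benjamini-Hochberg adjustment over 15145 genes), 5 of the 10 genes were higher, where 22.4% of all tested genes were, and 3 were lower, where 23.3% of all tested genes were. With a change of at least 2-fold required as well, 1 gene was upregulated (4.34% of all tested genes) and 2 were downregulated (5.69% of all tested genes). The values of FeD and control kidneys did not overlap for 8 genes. FeD was above control for 5 of them (28.4% of all tested genes) and below for 3 (29.7% of all tested genes). The median log2 fold change of the 10 genes was 0.29, against -0.0018 for all tested genes. These are whole kidneys, so fewer cells of a type and less RNA per cell cannot be told apart.

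**Figure D1:**
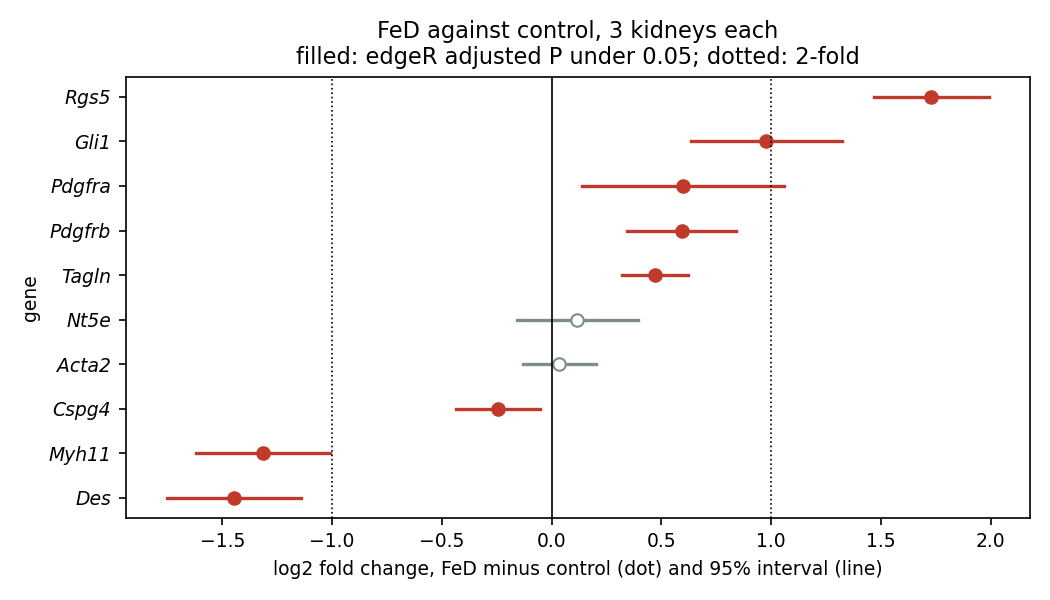
Log2 fold change of each of the 10 genes, FeD minus control, with its 95% interval (line), from 3 kidneys a group; filled dots passed an edgeR adjusted P under 0.05 and dotted lines mark 2-fold. *Rgs5* lies past 2-fold on the right at 1.73, *Des* and *Myh11* past it on the left at -1.45 and -1.31, and the intervals of *Acta2* and *Nt5e* cross 0.

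Levels of different genes were compared as library-scaled counts (CPM) per kilobase of exon. In control kidneys *Acta2* had the highest level of the 10, 66.4 ± 4.46 CPM per kilobase (SD, n = 3). *Tagln* (46.7 ± 3.22) and *Rgs5* (41.3 ± 2.53) followed, and the ranges of these neighbours overlapped. *Pdgfrb* (34.6 ± 2.50) exceeded *Pdgfra* (24.3 ± 1.23) in every control kidney. *Myh11* (15.0 ± 2.32) and *Nt5e* (13.3 ± 0.711) had overlapping ranges, *Des* (7.20 ± 0.971) lay just above *Cspg4* (5.94 ± 0.368), and *Gli1* was lowest at 1.92 ± 0.357. In FeD kidneys the order changed. *Rgs5* became the highest of the 10, at 137.0 ± 19.8 CPM per kilobase, above *Acta2* (68.1 ± 4.16) in all 3 kidneys. *Tagln* (64.6 ± 1.07) then overlapped *Acta2*, *Pdgfrb* (52.1 ± 7.55) overlapped *Pdgfra* (36.8 ± 12.3), and *Myh11* (5.99 ± 0.743) overlapped *Cspg4* (5.02 ± 0.290). *Des* became the lowest, at 2.64 ± 0.297, below *Gli1* (3.78 ± 0.212).

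**Figure D2:**
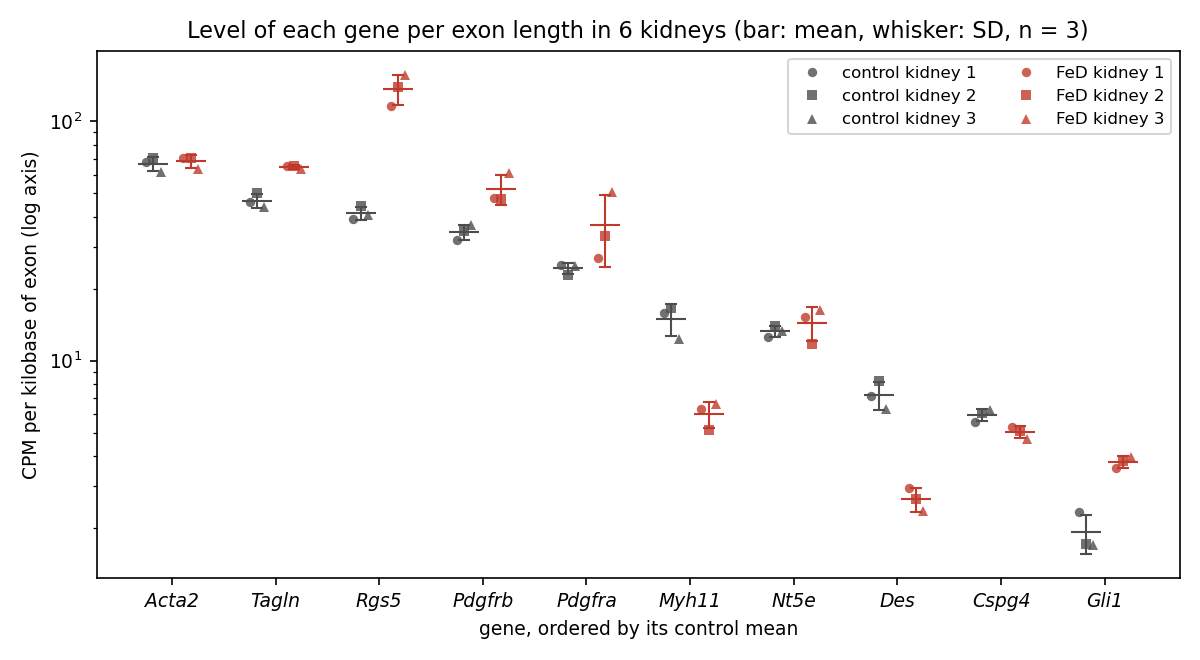
Level of each gene as CPM per kilobase of exon (log axis) in every kidney, control in grey and FeD in red, with the mean (bar) and SD (whisker) of 3 kidneys; genes run from the highest control mean to the lowest. *Rgs5* stands fully above its control values, *Myh11* and *Des* fully below, and the FeD values of *Pdgfra* spread from 26.8 to 50.5.

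The promoters of *Acta2*, *Des* and *Rgs5* are shown because the first of these genes did not pass the test while the others changed most among the 10. RefSeq promoter windows (GRCm38.p6) matched 6 of the 10 genes, and the windows of *Pdgfrb*, *Gli1*, *Tagln* and *Myh11* were not used here. The 250 bases upstream of the start are printed 5′ to 3′ on the gene's strand, from chr19:34255374-34255623 (minus strand) for *Acta2*, chr1:75360042-75360291 (plus strand) for *Des* and chr1:169655251-169655500 (plus strand) for *Rgs5*. Capitals mark matches to any motif searched.
Acta2: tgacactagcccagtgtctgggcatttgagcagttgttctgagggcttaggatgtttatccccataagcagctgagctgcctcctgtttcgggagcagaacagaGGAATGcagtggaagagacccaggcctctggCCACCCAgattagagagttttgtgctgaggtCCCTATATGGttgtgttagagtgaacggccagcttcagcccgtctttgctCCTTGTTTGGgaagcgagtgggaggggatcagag
Des: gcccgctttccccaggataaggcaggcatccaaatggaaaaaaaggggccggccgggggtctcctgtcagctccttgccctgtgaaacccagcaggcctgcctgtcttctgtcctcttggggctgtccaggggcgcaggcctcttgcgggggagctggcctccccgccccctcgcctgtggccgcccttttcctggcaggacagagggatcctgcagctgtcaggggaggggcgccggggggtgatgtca
Rgs5: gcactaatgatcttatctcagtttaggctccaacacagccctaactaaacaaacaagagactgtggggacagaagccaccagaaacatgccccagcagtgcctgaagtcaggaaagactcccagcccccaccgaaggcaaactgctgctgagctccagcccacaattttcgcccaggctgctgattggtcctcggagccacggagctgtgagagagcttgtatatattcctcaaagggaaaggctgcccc

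The motifs searched on both strands were the CArG box (bound by serum response factor, in its strict form and with 1 C or G allowed in its A/T core), CCACCCA (the core of the GLI site), CATTCC (the MCAT element), GTGGGAA (the RBPJ site) and ACGTG and GCGTG (the cores of the hypoxia response element). The *Acta2* window held 2 CArG boxes with 1 C or G in the core, at 84 to 75 and 34 to 25 bases upstream of the start, a form found in 7.23% of 32544 promoter windows of the same length. It also held the GLI core at 115 to 109 bases (8.13% of windows) and the MCAT element on the other strand at 146 to 141 bases (12.6% of windows). No strict CArG box was in any of the 6 windows (1.48% of all windows). The windows of *Des*, *Rgs5*, *Pdgfra* and *Cspg4* held none of the motifs, and that of *Nt5e* held GCGTG at 138 to 134 bases (28.3% of windows). The RBPJ site (5.43% of windows) and ACGTG (16.6% of windows) were in none of the 6 windows. A match of letters is a description of the sequence and not a site of binding.

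Of the pericyte markers among the 10 genes, *Rgs5* rose and *Cspg4* fell. *Rgs5* shortens signals from G protein-coupled receptors, which include the receptors for vasoconstrictors, and is known for its expression in pericytes (chr1:171585632-171625944 in mm9, plus strand). Its normalized counts were 3189, 3584 and 3287 in control kidneys 1 to 3 and 9444, 11303 and 12644 in FeD kidneys 1 to 3. The lowest FeD kidney exceeded the highest control kidney more than 2-fold. Its log2 fold change was 1.73 (SE 0.11, adjusted P = 3.53e-05), and it also passed edgeR's test against a change of 2-fold (adjusted P = 0.0018). *Cspg4* encodes a chondroitin sulfate proteoglycan on the surface of pericytes (chr9:56712911-56747677, plus strand). Its normalized counts were 796, 868 and 899 in control kidneys and 759, 731 and 677 in FeD kidneys. The groups did not overlap, but the highest FeD kidney (759) was close to the lowest control kidney (796). The fall of 15.5% had an adjusted P of 0.0426. That call was lost when control kidney 2, control kidney 3 or any 1 FeD kidney was left out (adjusted P between 0.0517 and 0.148) and with DESeq2 (adjusted P = 0.063), whereas the log2 fold change stayed between -0.31 and -0.19.

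The other pericyte genes on a list compiled for this work rose more often than they fell. Of 14 genes tested, 7 were higher at an adjusted P under 0.05, where 22.4% of all tested genes were. The 1 lower gene was *Ndufa4l2*, a mitochondrial protein, where 23.3% of all tested genes were lower. The other 6 did not pass, and the median log2 fold change of the list was 0.35. *Abcc9* and *Kcnj8*, the regulatory subunit and the pore of the ATP-sensitive potassium channel of mural cells, were the members past 2-fold. *Abcc9* had 550.2, 477 and 513 normalized counts in control kidneys and 2011, 2566 and 2331 in FeD kidneys, a log2 fold change of 2.16 (SE 0.10, adjusted P = 8.86e-06). *Kcnj8* had 426, 444 and 479 in control kidneys and 949.8, 935 and 998 in FeD kidneys (log2 fold change 1.10, SE 0.081, adjusted P = 5.5e-05). All FeD kidneys were above all control kidneys for both. *Rgs4*, a close relative of *Rgs5*, rose from 112, 133 and 145 normalized counts to 526, 709 and 666 (log2 fold change 2.28, SE 0.15, adjusted P = 3.32e-05). Among the 4 relatives of *Rgs5* that were tested, 2 rose (22.4% of all tested genes did) and 2 did not pass.

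The PDGF receptors rose by similar amounts on average but with different spread. *Pdgfrb* binds the ligand that endothelium secretes and is a marker of pericytes and mesangial cells. Its normalized counts were 3121, 3418 and 3607 in control kidneys and 4693, 4650 and 5950 in FeD kidneys. The groups did not overlap, and the log2 fold change was 0.59 (SE 0.11, adjusted P = 0.00297). *Pdgfra* marks fibroblasts of the interstitium (chr5:75548316-75594229, plus strand). It had 3030, 2755 and 2988 normalized counts in control kidneys and 3228, 3980 and 6079 in FeD kidneys. FeD kidney 1 lay just above the highest control kidney and FeD kidney 3 far above it, so that the coefficient of variation was 33.4% in FeD kidneys and 5.07% in controls. Its log2 fold change of 0.60 (SE 0.20) had an adjusted P of 0.0391. The value fell to 0.31 without FeD kidney 3 (adjusted P = 0.0203). The call was lost without control kidney 1, 2 or 3 (adjusted P = 0.0883, 0.124 and 0.0998) and with DESeq2 (adjusted P = 0.0802). In the ratio of both receptors' raw counts within a kidney, *Pdgfra* to *Pdgfrb*, the groups overlapped (0.971, 0.806 and 0.828 in control kidneys, 0.688, 0.856 and 1.02 in FeD kidneys).

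Of the 4 PDGF ligands, 2 fell (23.3% of all tested genes did) and 2 did not pass. *Pdgfb*, the endothelial ligand of *Pdgfrb*, fell from 763, 760.0 and 866 normalized counts to 574, 514 and 451 (log2 fold change -0.64, SE 0.11, adjusted P = 0.00213). *Pdgfc* fell from 553, 527 and 509.8 to 397, 347 and 401 (log2 fold change -0.47, SE 0.088, adjusted P = 0.00339). FeD kidneys were below control kidneys for both ligands. The log2 fold change was 0.04 for *Pdgfa* (adjusted P = 0.832) and -0.29 for *Pdgfd* (adjusted P = 0.331). *Pdgfd* was above every control kidney in FeD kidney 3 and below every control kidney in FeD kidneys 1 and 2, and without FeD kidney 3 its log2 fold change was -0.63 (adjusted P = 0.00254).

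Endothelial markers, which share the vessel wall with pericytes, moved the other way from the PDGF receptors. Of 10 endothelial genes, 8 were lower (23.3% of all tested genes were) and 1 was higher (22.4% of all tested genes were). The higher gene was *Flt1*, a receptor for vascular endothelial growth factor. *Pecam1*, an adhesion molecule, did not pass, and the median log2 fold change of the list was -0.46. *Emcn*, a sialomucin of capillary and venous endothelium, was the endothelial gene past 2-fold (log2 fold change -1.04, SE 0.098, adjusted P = 0.000149). Their summed normalized counts were 27200 to 27731 in control kidneys and 17140 to 23365 in FeD kidneys. The ratio of *Pdgfrb* to *Pecam1* raw counts was 0.992, 1.09 and 1.18 in control kidneys and 1.70, 1.39 and 1.54 in FeD kidneys, without overlap. The part of the endothelial values in the rise of *Pdgfrb* was not tested.

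*Nt5e* converts AMP to adenosine outside the cell and is found on cortical fibroblasts and on proximal tubule (chr9:88222447-88266927, plus strand). Its normalized counts were 805, 896 and 849.6 in control kidneys and 971, 752 and 1039 in FeD kidneys. The groups overlapped, with FeD kidneys 1 and 3 above and FeD kidney 2 below every control kidney. The log2 fold change was 0.12 with a 95% interval of -0.16 to 0.39 (adjusted P = 0.453). Without FeD kidney 2, which held adrenal transcripts, it was 0.26 (adjusted P = 0.0283). With control kidney 1, which also held some, left out as well, it was 0.21 and did not pass (adjusted P = 0.147). Summed counts of 4 proximal tubule markers were 116831 to 124536 in control kidneys and 44958 to 48556 in FeD kidneys, and their part in the *Nt5e* values was not tested. Of the other 10 tested genes of adenosine formation, uptake and signaling, 3 rose (22.4% of all tested genes) and 2 fell (23.3% of all tested genes). *Entpd1*, which supplies AMP by removing phosphates from ATP, was the member past 2-fold, with 609.7, 611 and 549 normalized counts in control kidneys and 1050, 1174 and 1445 in FeD kidneys (log2 fold change 1.05, SE 0.12, adjusted P = 0.000362).

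*Gli1* is transcribed in cells that receive a Hedgehog signal and marks perivascular mesenchymal cells (chr10:126766945-126778645, minus strand). It was the least abundant of the 10 genes in controls, with 157, 116 and 115 normalized counts in control kidneys and 240.0, 257 and 269 in FeD kidneys. All FeD kidneys were above all control kidneys. The log2 fold change was 0.98 (SE 0.15, adjusted P = 0.00129), just under 2-fold. It reached 2-fold without control kidney 1 (1.14), without FeD kidney 1 (1.04) and with sex as a covariate (1.04). *Gli1* shares 1.45% of its exon bases with *Arhgap9* on the opposite strand, which had 26.0 to 49.8 normalized counts and did not pass the test.

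The other Hedgehog genes moved in both directions. *Ihh*, the ligand made by tubular epithelium, rose from 292, 276 and 317 normalized counts to 902, 592 and 1042 (log2 fold change 1.52, SE 0.19, adjusted P = 0.000519). *Dhh* fell from 55.6, 37.6 and 39.1 to 16.0, 16.9 and 12.1 (log2 fold change -1.57, SE 0.28, adjusted P = 0.00286), and *Shh* had a value of 0.26 (adjusted P = 0.525). Of the genes that Hedgehog signaling is known to induce, the decoy receptor *Hhip* rose from 59.4, 43.1 and 43.6 to 168, 231 and 204 (log2 fold change 2.04, SE 0.19, adjusted P = 0.000155). The receptor *Ptch1* rose by 0.48 on the log2 scale (SE 0.10, adjusted P = 0.00581). The signal transducer *Smo* fell by 0.41 on that scale (adjusted P = 0.000815), and the inhibitor *Sufu* fell by 0.60 (adjusted P = 0.000698). Of the co-receptors, *Boc* rose by 0.78 (adjusted P = 0.000371), *Cdon* fell by 0.44 (adjusted P = 0.014) and *Gas1* had a log2 fold change of -0.22 (adjusted P = 0.0519). Over the list of 12 Hedgehog genes, 4 were higher (22.4% of all tested genes), 4 were lower (23.3% of all tested genes) and 4 did not pass. The median log2 fold change of the list was -0.06.

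The 4 contractile and filament genes divided into 1 that rose, 1 that did not pass and 2 that fell by more than 2-fold. *Acta2*, the smooth muscle alpha actin, lies at chr19:34315580-34329826 (minus strand). It had 2153, 2230 and 1956 normalized counts in control kidneys and 2237, 2248 and 2013 in FeD kidneys. The groups overlapped almost fully. The log2 fold change was 0.04 with a 95% interval of -0.13 to 0.20 (adjusted P = 0.718), which bounds a change in *Acta2* to well under 2-fold. *Tagln*, an actin-binding protein of smooth muscle, lies at chr9:45737711-45744141 (minus strand). Its normalized counts were 1308, 1418 and 1238 in control kidneys and 1847, 1848 and 1795 in FeD kidneys. The FeD kidneys were close to each other and above all controls, with a log2 fold change of 0.47 (SE 0.065, adjusted P = 0.000841). *Tagln* shares 4.10% of its exon bases with *Pcsk7* on the opposite strand, which had 1259 to 1264 normalized counts in control kidneys and 910.2 to 1186 in FeD kidneys.

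*Myh11* encodes the smooth muscle myosin heavy chain (chr16:14194620-14291501, minus strand). It had 1880, 1974 and 1457 normalized counts in control kidneys and 741, 610.2 and 778 in FeD kidneys. Control kidney 3 was the lowest control and still lay above the highest FeD kidney. The log2 fold change was -1.31 (SE 0.13, adjusted P = 0.000194), and it did not pass the test against a change of 2-fold (adjusted P = 0.129). *Des* encodes desmin, the intermediate filament protein of muscle that kidney pericytes and mesangial cells also make (chr1:75356904-75365154, plus strand). Its normalized counts were 477, 549.8 and 419.9 in control kidneys and 197, 177 and 157 in FeD kidneys. Every FeD kidney was below every control kidney. The log2 fold change was -1.45 (SE 0.13, adjusted P = 0.000135), and it passed the test against 2-fold (adjusted P = 0.0318). Skeletal muscle also makes desmin, and FeD kidney 1, which held skeletal muscle transcripts, had the highest *Des* of the FeD group. Without it the log2 fold change was -1.52 (adjusted P = 0.000727). *Des* overlaps the noncoding *Gm15179* on the opposite strand over 5.86% of its exon bases, and that gene had at most 1 raw count in any kidney.

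Ratios within a kidney do not depend on the scaling between libraries. Among 8 ratios of raw counts chosen after the values were seen, the ratio of *Myh11* to *Acta2* was 0.873, 0.885 and 0.745 in control kidneys and 0.331, 0.272 and 0.386 in FeD kidneys. The ratio of *Des* to *Acta2* was 0.222, 0.246 and 0.215 in control kidneys and 0.0881, 0.0786 and 0.0780 in FeD kidneys. The ratio of *Tagln* to *Acta2* was 0.607, 0.636 and 0.633 in control kidneys and 0.826, 0.822 and 0.891 in FeD kidneys. Relative to *Acta2*, *Myh11* and *Des* were thus lower and *Tagln* higher in every FeD kidney. The ratio of *Rgs5* to *Pdgfrb* was 1.02, 1.05 and 0.911 in control kidneys and 2.01, 2.43 and 2.13 in FeD kidneys, so *Rgs5* rose beyond the rise of *Pdgfrb*. The ratio of *Rgs5* to *Cspg4* went from 4.01, 4.13 and 3.66 to 12.5, 15.5 and 18.7. The ratio of *Myh11* to *Pdgfrb* went from 0.602, 0.577 and 0.404 to 0.158, 0.131 and 0.131. For 7 of the 8 ratios, all but *Pdgfra* to *Pdgfrb*, the groups did not overlap, and the two-sided exact permutation P was 0.1, the smallest that 3 against 3 kidneys allow (0.114 adjusted over the 8 ratios).

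**Figure D3:**
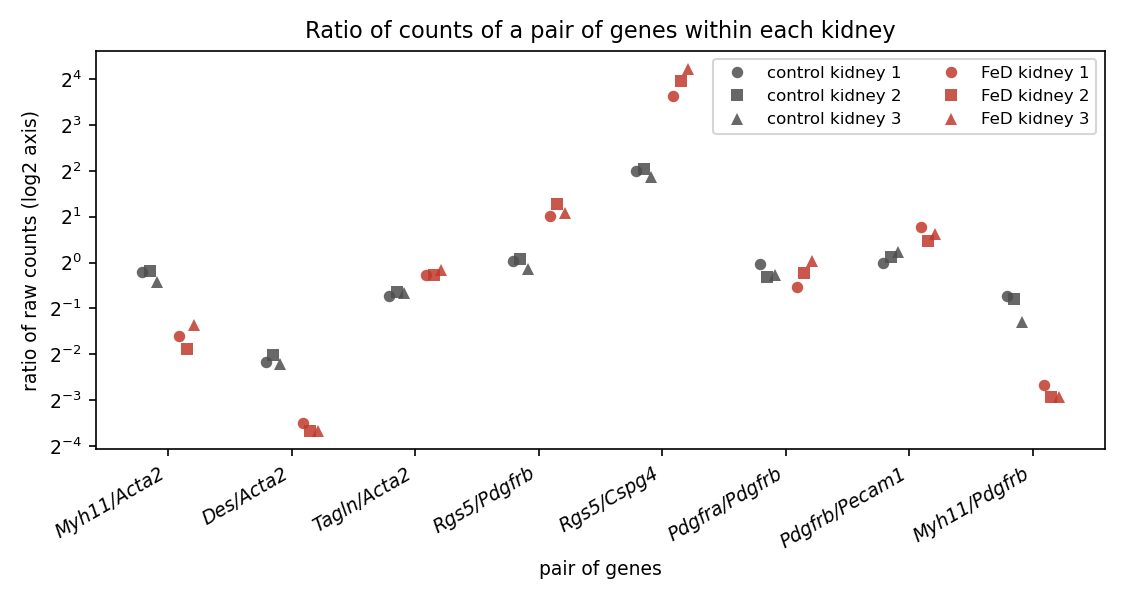
Ratio of raw counts of a pair of genes within each kidney (log2 axis), control in grey and FeD in red, a point a kidney. The FeD points lie fully below the control points for *Myh11*/*Acta2*, *Des*/*Acta2* and *Myh11*/*Pdgfrb*, and the groups overlap for *Pdgfra*/*Pdgfrb*.

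The wider set of smooth muscle contractile genes was mostly lower. Of 16 genes tested, 9 were lower (23.3% of all tested genes), 1 was higher (22.4% of all tested genes) and 6 did not pass. The higher gene was *Mrvi1*, a regulator of calcium release, and the median log2 fold change of the list was -0.38. The 4 members past 2-fold were lower (5.69% of all tested genes were lower past 2-fold). For each the FeD kidneys were below the control kidneys without overlap, as for 29.7% of all tested genes. *Cnn1*, the calponin of differentiated smooth muscle, fell from 129, 132 and 120.1 normalized counts to 21.0, 41.6 and 16.4 (log2 fold change -2.31, SE 0.31, adjusted P = 0.000696). *Actg2*, the gamma actin of visceral smooth muscle, fell from 104, 111 and 55.2 to 31.0, 22.1 and 6.04 (log2 fold change -2.21, SE 0.50, adjusted P = 0.00806). *Pln*, an inhibitor of the calcium pump of the sarcoplasmic reticulum, fell from 55.6, 60.8 and 57.8 to 13.0, 11.7 and 19.0 (log2 fold change -1.96, SE 0.26, adjusted P = 0.000632). *Synpo2*, an actin-bundling protein, had a log2 fold change of -1.09 (SE 0.31, adjusted P = 0.0205), a call that was lost without control kidney 1, control kidney 2 or FeD kidney 1 (adjusted P up to 0.0819). The actins that most cells use were *Actg1*, which fell by 0.55 on the log2 scale (SE 0.10, adjusted P = 0.00364), and *Actb*, with -0.17 (adjusted P = 0.309). Of 5 relatives of *Tagln* and *Myh11*, the nonmuscle myosins included, 0 passed in edgeR, 0 had an unadjusted P under 0.05, and 0 passed in DESeq2 or limma-voom. Their log2 fold changes ran from -0.17 (*Myh10*) to 0.15 (*Tagln3*). *Myh10* was lower without FeD kidney 3 (-0.29, adjusted P = 0.00248) and *Tagln3* without FeD kidney 2 (-1.66, adjusted P = 0.0435).

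Among 8 transcription factors of smooth muscle, 2 were higher (22.4% of all tested genes were) and 6 did not pass. *Mkl2*, a coactivator of serum response factor related to myocardin, rose from 921, 831 and 939.5 normalized counts to 1436, 1584 and 1516, without overlap (log2 fold change 0.75, SE 0.073, adjusted P = 0.000169). *Myocd*, the coactivator myocardin that drives the contractile genes, had 21.1, 17.7 and 12.5 normalized counts in control kidneys and 25.0, 28.6 and 56.1 in FeD kidneys. FeD kidney 3 was far above the others. The log2 fold change of *Myocd* was 1.12 (SE 0.39, adjusted P = 0.0448), and the call was lost without any 1 control kidney or without FeD kidney 3 (adjusted P between 0.0672 and 0.152) and with DESeq2 (adjusted P = 0.0783). It was also lost with no filter (adjusted P = 0.0604), with limma-voom (0.0547) and with the replicate number as a block (0.0823). Leaving out control kidney 1 and FeD kidney 2 lost it too (adjusted P = 0.061).

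Interstitial fibroblast genes outside the 10 were more often lower than higher. Of 18 tested, 10 were lower (23.3% of all tested genes), 3 were higher (22.4% of all tested genes) and 5 did not pass. The median log2 fold change of the list was -0.41. The lower members past 2-fold were *Dpt*, *Lum*, *Col3a1*, *Postn* and *Tnc*, which encode matrix proteins, whereas *Dcn*, a matrix proteoglycan on the same list, was higher. *Dpt* had a log2 fold change of -2.53 (SE 0.28, adjusted P = 0.00029), *Lum* of -2.31 (SE 0.32, adjusted P = 0.000819) and *Col3a1* of -1.05 (SE 0.11, adjusted P = 0.000208). *Postn* (-1.40, SE 0.30, adjusted P = 0.00596) and *Tnc* (-1.32, SE 0.26, adjusted P = 0.00416) were also lower. *Dcn* rose from 2048, 1943 and 1371 normalized counts to 2476, 3465 and 3561 (log2 fold change 0.83, SE 0.18, adjusted P = 0.00611). *Foxd1*, a transcription factor of the renal stroma, rose by 0.82 on the log2 scale (SE 0.18, adjusted P = 0.00641). *Fap*, a protease of activated fibroblasts, was higher (log2 fold change 1.01, SE 0.28, adjusted P = 0.0198), a call lost without control kidney 1 or 3 (adjusted P up to 0.0788). The *Fap* call was also lost with control kidney 1 and FeD kidney 2 both left out (adjusted P = 0.128). *Epo*, the hormone that some of these interstitial cells make, had 3.83, 4.42 and 4.45 normalized counts in control kidneys and 71.0, 45.4 and 56.1 in FeD kidneys (log2 fold change 3.73, SE 0.32, adjusted P = 9.85e-05). Among 4 tested mesangial and renin cell genes, 2 were higher (22.4% of all tested genes), 1 was lower (23.3% of all tested genes) and 1 did not pass. *Itga8*, an integrin chain of mesangial cells, fell from 1517, 1465 and 1563 normalized counts to 446, 708 and 863 (log2 fold change -1.17, SE 0.20, adjusted P = 0.00215). *Gata3*, a transcription factor of mesangial cells and collecting duct, rose by 0.47 on the log2 scale (SE 0.10, adjusted P = 0.00633), and *Serpine2*, a protease inhibitor, had a log2 fold change of 0.03 (adjusted P = 0.869). *Akr1b7*, which renin cells and adrenal cortex make, had 187, 211 and 205 in control kidneys and 227, 1846 and 678 in FeD kidneys, highest in the kidney with adrenal transcripts. Its log2 fold change was 2.18 (adjusted P = 0.0218) and was 1.20 without that kidney (adjusted P = 0.0378). Without control kidney 1, 2 or 3 its adjusted P was between 0.0682 and 0.0722. The *Akr1b7* call was also lost with limma-voom and with control kidney 1 and FeD kidney 2 both left out (adjusted P up to 0.108). *Ren1* was listed at 0 in every kidney, and so were the globin genes on the erythroid list. Whether these zeros come from the annotation or from keeping uniquely mapped reads was not tested, so they do not show that the transcripts were absent.

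**Figure D4:**
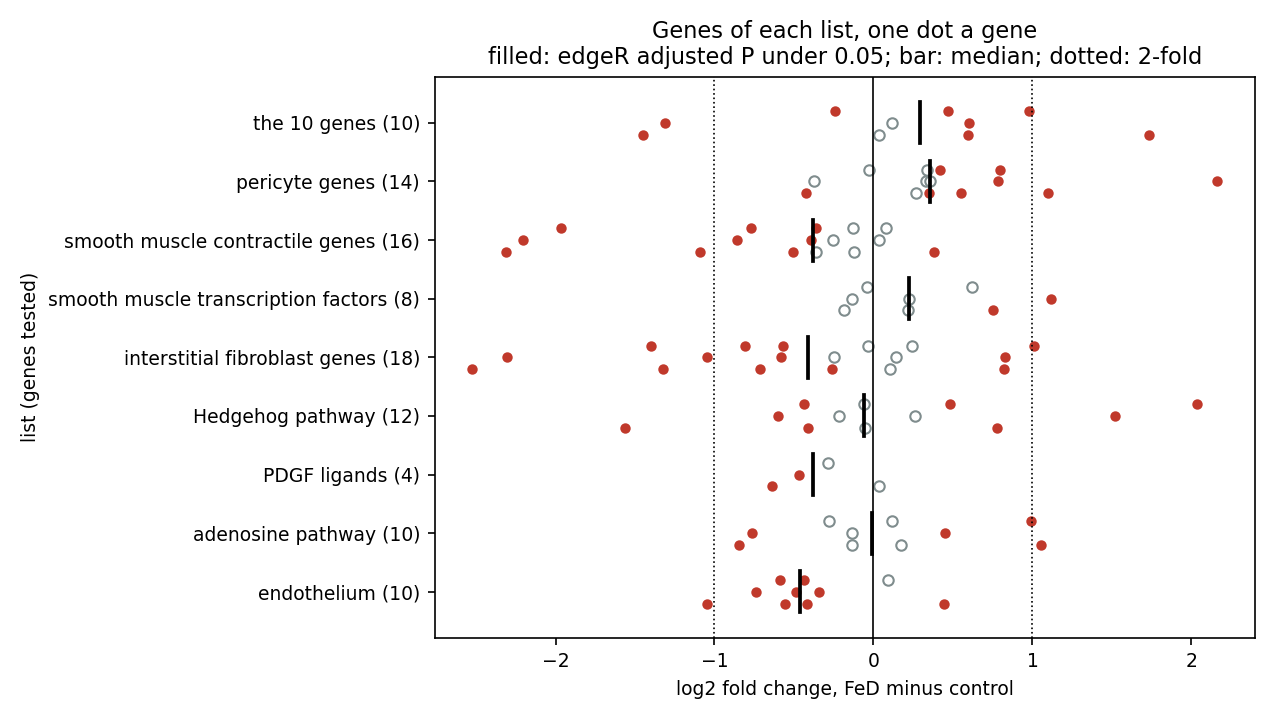
Log2 fold change, FeD minus control, of each tested gene of 9 lists, a dot a gene; filled dots passed an edgeR adjusted P under 0.05, bars are medians and dotted lines mark 2-fold. The medians of pericyte genes (0.35) and smooth muscle contractile genes (-0.38) lie on opposite sides of 0, and the lowest contractile gene is *Cnn1* at -2.31.

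Markers of other tissues and cells were read beside these results. In FeD kidneys, 5 of 5 proliferation genes, 4 of 4 proximal tubule genes, 3 of 5 urothelial genes, 3 of 5 adipose genes and 1 of 3 tested cardiac muscle genes were lower. The share over all tested genes was 23.3% for lower genes and 22.4% for higher genes. The adipose list also had 1 gene higher (*Fabp4*, which endothelium shares), and its summed counts were 6103 to 6932 in control kidneys and 7972 to 9696 in FeD kidneys. Urothelial sums were 999 to 1374 in control kidneys and 711 to 953 in FeD kidneys. Summed cardiac muscle counts were 108 to 143 and 38.8 to 89.6. Podocyte sums overlapped (13354 to 14406 and 10855 to 15271), with *Wt1* higher and the other 4 genes not passing, and so did macrophage sums (2029 to 2158 and 1757 to 2136), with 2 genes higher, 1 lower and 2 not passing. Proliferation sums fell from between 1898 and 2178 to between 519 and 661. The urinary tract wall holds visceral smooth muscle and is lined by urothelium, and the part of the urothelial values in the fall of *Myh11*, *Des*, *Cnn1* and *Actg2* was not tested. Without control kidney 1 and FeD kidney 2, the libraries with adrenal transcripts, the log2 fold changes were 1.69 for *Rgs5*, -1.17 for *Myh11* and -1.45 for *Des*.

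Deviations of each kidney from its group mean were compared to see which genes varied together. These are descriptions over 6 kidneys that share library and depth. On log2 CPM, *Acta2* and *Des* (Pearson r = 0.91), *Des* and *Tagln* (r = 0.88) and *Acta2* and *Tagln* (r = 0.83) varied together. *Pdgfra* and *Rgs5* (r = 0.81), *Pdgfra* and *Pdgfrb* (r = 0.80) and *Pdgfrb* and *Rgs5* (r = 0.70) formed another set, with FeD kidney 3 highest for all 3 genes. Between these sets the correlation was below 0 for 8 of 9 pairs, as for *Pdgfrb* and *Acta2* (r = -0.80). *Cspg4* and *Gli1* had the lowest value of the 45 pairs (r = -0.87). The median over pairs was 0.04, and 25 pairs were above 0. The sets were named for their high r, and no test was made of them. The genes with deviations most like those of *Pdgfra* were *Macf1* (r = 0.999), *Smarca5* and *Usp34*. Most like *Pdgfrb* were *Armcx1* (r = 0.999), *Crot* and *Sccpdh*. Most like *Acta2* were *Zfand1* (r = 0.999), *Neurl3* and *Sdcbp2*, and most like *Myh11* were *1700039E22Rik* (r = 0.997), *Zbtb25* and *Dtx3l*. Each of these genes is the top of a search over 15145 genes. With 6 values centred within each group, the best of so many can reach such r without shared regulation.

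**Figure D5:**
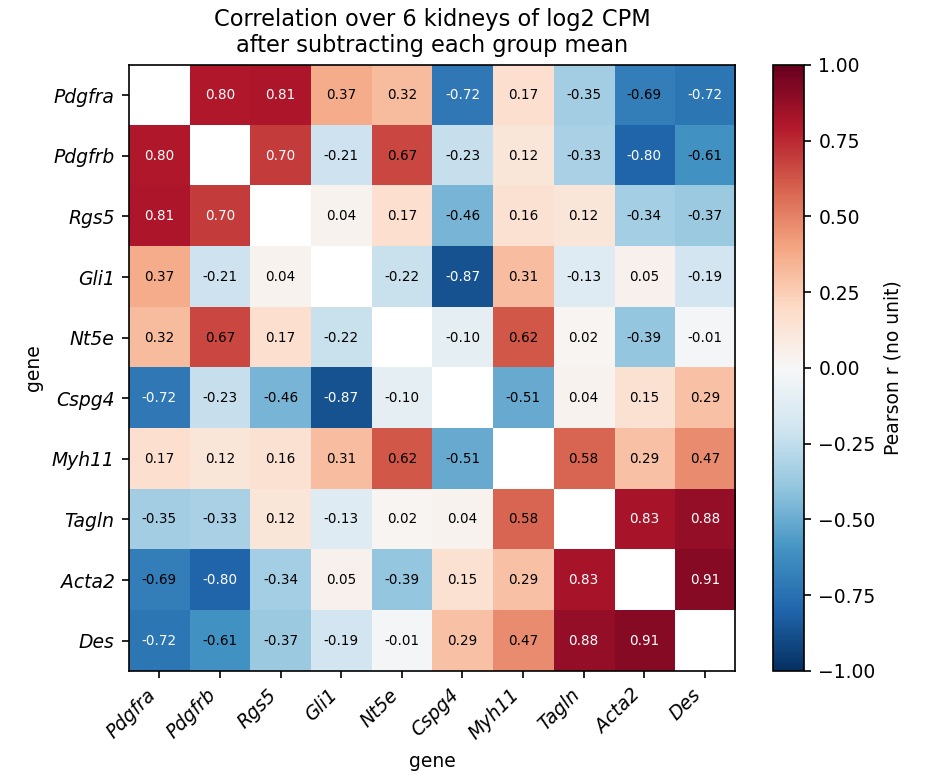
Pearson r between each pair of the 10 genes over 6 kidneys, on log2 CPM after subtracting each group's mean; red is positive and blue negative. *Acta2*, *Tagln* and *Des* form a red block (0.83 to 0.91) and so do *Pdgfra*, *Pdgfrb* and *Rgs5* (0.70 to 0.81).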

How the data were processed

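RNA was measured in whole kidneys of 3 FeD and 3 control pups. The authors isolated total RNA, prepared polyadenylated TruSeq libraries, sequenced single-end reads of 100 bases, processed them with CASAVA 1.8.2 and Trimmomatic, aligned them to mm9 with TopHat2 2.0.11, kept uniquely mapped reads and deposited raw HTSeq counts per gene symbol, unpooled and not normalized. The gene annotation, counting mode and strand setting are not given in the sources used here, so reads of genes that overlap on opposite strands cannot be told apart. No 100-base window of the 10 genes recurred in another protein-coding gene.

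Groups and replicate numbers came from the labels. Nothing states that kidneys came from separate litters, so P values measure the spread between these kidneys only. The 10 genes, the lists and the tests were chosen with earlier results of these data known. Counts were fitted with edgeR 4.0.16 in R 4.3.3 (filterByExpr, 15145 genes; TMM; quasi-likelihood test; Benjamini-Hochberg adjustment), with calls at an adjusted P under 0.05, alone or with a log2 fold change of at least 1. Normalized counts are raw counts scaled by TMM to the mean library. The SE is the log2 fold change divided by the square root of F. Exon lengths and positions came from the NCBIM37 (mm9) GENCODE annotation. Ratios were tested by exact permutation (scipy 1.17.1). Total counts were 13732173 to 20853293, so a floor of 3 counts was 0.144 to 0.219 CPM, which covers counting error only. The procedure was tested on simulated data. Named outside the 10 genes were the PDGF ligands, from each list of mural, stromal and pathway genes the called genes past 2-fold, or its highest and lowest gene where none was, and the 3 genes most correlated with *Pdgfra*, *Pdgfrb*, *Acta2* and *Myh11*. Marker lists of other cells and tissues are given by their counts and summed ranges. *Shh*, *Ptch1*, *Smo*, *Sufu*, *Boc*, *Cdon*, *Gas1*, *Mkl2*, *Dcn*, *Foxd1*, *Gata3*, *Serpine2*, *Emcn*, *Ndufa4l2*, *Mrvi1*, *Flt1*, *Pecam1*, *Fabp4*, *Wt1* and *Ren1* were named after their values were seen. A gene of the Hedgehog list is not reported here and was left out of its counts.

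Alternatives were DESeq2 size factors, library size alone, no filter, at least 10 counts in every sample, DESeq2 1.42.0 (plain and shrunken), edgeR's test against 2-fold, limma-voom (limma 3.58.1), the replicate number as a block and each kidney left out. Added after seeing the data were sex as a covariate, control kidney 1 and FeD kidney 2 left out, and FeD kidneys 1 and 2 left out.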

Additional observations from a re-analysis of the deposited data

How the results depend on the processing

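*Rgs5*, *Pdgfrb*, *Gli1*, *Tagln*, *Myh11* and *Des* kept their direction and their call at an adjusted P under 0.05. This held under every alternative with at least 2 kidneys a group that gave a log2 fold change. *Pdgfra* lost its call under 6 of these alternatives and *Cspg4* under 9, and the cause was not tested. The median log2 fold change of all genes was between -0.0038 and 0.0073 under the 3 scalings. The number of the 10 genes upregulated at least 2-fold, 1 in the report, was 2 with sex as a covariate, 2 with control kidney 1 and FeD kidney 2 left out, and between 1 and 2 when a single kidney was dropped. The additional gene was *Gli1*. With FeD kidneys 1 and 2 left out, 1 FeD kidney remained, so that fit has no spread within the FeD group. Its log2 fold changes were 1.09 for *Pdgfra* and 1.08 for *Gli1*. The number downregulated at least 2-fold, 2 in the report, was 1 in edgeR's test against 2-fold, a stricter test by construction. At an adjusted P under 0.05, the numbers that rose and fell stayed between 4 and 6 and between 2 and 3 when a single kidney was dropped. Values near 0 that did not pass the test changed sign: *Acta2* was between -0.0197 and 0.0977 when a single kidney was dropped and -0.0388 with FeD kidneys 1 and 2 left out. *Pdgfa* was -0.0276 with sex as a covariate, between -0.0875 and 0.1211 when a single kidney was dropped, and -0.0857 with FeD kidneys 1 and 2 left out. With those 2 left out *Pdgfd* was 0.24 and *Myh10* 0.10. *Tagln3* was -0.19 with the replicate block, -0.32 with sex as a covariate, -0.61 with limma-voom, between -1.66 and 0.67 when a single kidney was dropped, and -1.55 with FeD kidneys 1 and 2 left out. Deviations of kidneys with the same replicate number had r = -0.16, 0.0001 and -0.03, and those with different numbers between -0.09 and 0.17. Subtracting a mean over 3 kidneys holds such values near 0 on average, so they cannot tell whether the numbers pair the samples. With the replicate block 5 of the 10 genes were higher, 2 lower, 1 upregulated and 2 downregulated at least 2-fold, and *Cspg4* was the gene whose call was lost (adjusted P = 0.0903). Genes of low count carry the widest counting error at this depth. Examples are *Epo* (4, 4 and 5 raw counts in control kidneys), *Dhh*, *Pln*, *Tagln3*, *Myocd* and *Actg2*. Among the 10 genes *Gli1* had the lowest counts in control kidneys.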
